A study of Cicer arietinum with 18 samples.

Results

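On a spotted cDNA array of chickpea (Cicer arietinum), 71 features reached a set mean RNA ratio 27 h after aminocyclopropane carboxylic acid (ACC). Their mean ratios to untreated control stayed below that level 27 h after salicylic acid (SA), but 38 of the 71 were above control. They were chosen on these values: a mean log2 ratio of 0.4 or higher under ACC (about 1.32-fold) and below 0.4 under SA, each over at least 2 of 3 genotypes. The rule was applied to the 559 features with identifiers that start with CA or U, of which 469 had both means, so the 71 are 15.1% of those that could be chosen. The whole array has 715 experimental features, the other 156 with identifiers that start with LS. Of the 71, 14 have CA identifiers (19.7%, against 20.9% of the 559) and 57 have U identifiers.

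The study set shoots (stem and leaf, pooled) of seedlings aged 14 days that had been treated with ACC, SA or methyl jasmonate (MeJA) against untreated shoots of the same genotype, 27 h and 3 h after treatment. The genotypes were ICC3996, FLIP94-508C and Lasseter, known as resistant, moderately resistant and susceptible to ascochyta blight. Each of the 18 samples is 1 combination of genotype, compound and time, hybridised with its untreated control and deposited as the authors' mean over 3 biological replications with dye swaps. The 6 groups, ACC 27 h, ACC 3 h, SA 27 h, SA 3 h, MeJA 27 h and MeJA 3 h, therefore hold 3 samples each. Every SD below is over the 3 genotypes unless it is said to be over features. No dose is named in the labels. A positive value most likely means more RNA in treated shoots, from the order of the labelled channels, but the direction is not stated for the values.

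ACC is the direct precursor of ethylene, which plant cells make from it with ACC oxidase. Ethylene binds receptors in the endoplasmic reticulum membrane, which releases a signalling chain from repression and activates transcription factors of the ethylene response factor family. In many plants ethylene and jasmonate act together on defence genes against fungi that kill their host cells, such as the ascochyta blight fungus, while SA drives systemic acquired resistance and can hold jasmonate responses back. The files used here do not pair the identifiers with genes, and 0 of the 715 matched the reference gene table, so the features are named by identifier and no role can be given for any of them. For the same reason the labelled tissue could not be checked against marker genes, and no sequence is shown.

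Facts of the whole series bear on all values below. A sample had values for 534 to 639 of the 715 features, the medians of the samples lay between -0.32 and 0.00, and their SDs over features lay between 0.28 and 1.22 (log2). The lowest correlation between any pair of samples was -0.23, across features. A difference in a shoot RNA pool can come from fewer cells of a type or from less RNA per cell, which cannot be told apart. The labels do not say whether the compounds of 1 time had separate untreated plants, so values under ACC, SA and MeJA at 27 h, or at 3 h, may share a control.

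The 27 h values that chose the features are given as a description. The ACC 27 h means of the 71 ran from 0.40 to 2.04 with a median of 0.67, and 8 were at 1 (2-fold) or higher. Their SA 27 h means ran from -1.13 to 0.35 with a median of 0.01, and 38 of them were above 0 and 33 below. Among the other 398 CA or U features with both means, the median was -0.37 under ACC and -0.25 under SA. The plot of ACC against SA means shows no gap at the ACC limit, where U087 (0.403) and U092 (0.422) were just inside the ACC limit and CA0112 (0.396) and U195 (0.391) just outside it. Among features high under ACC, U415 (0.353) and U054 (0.345) were the nearest inside the SA limit, and U188 (0.447) and U441 (0.452) the nearest outside. The difference between ACC and SA at 27 h was not tested, since the rule fixes it.

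**Figure D1:**
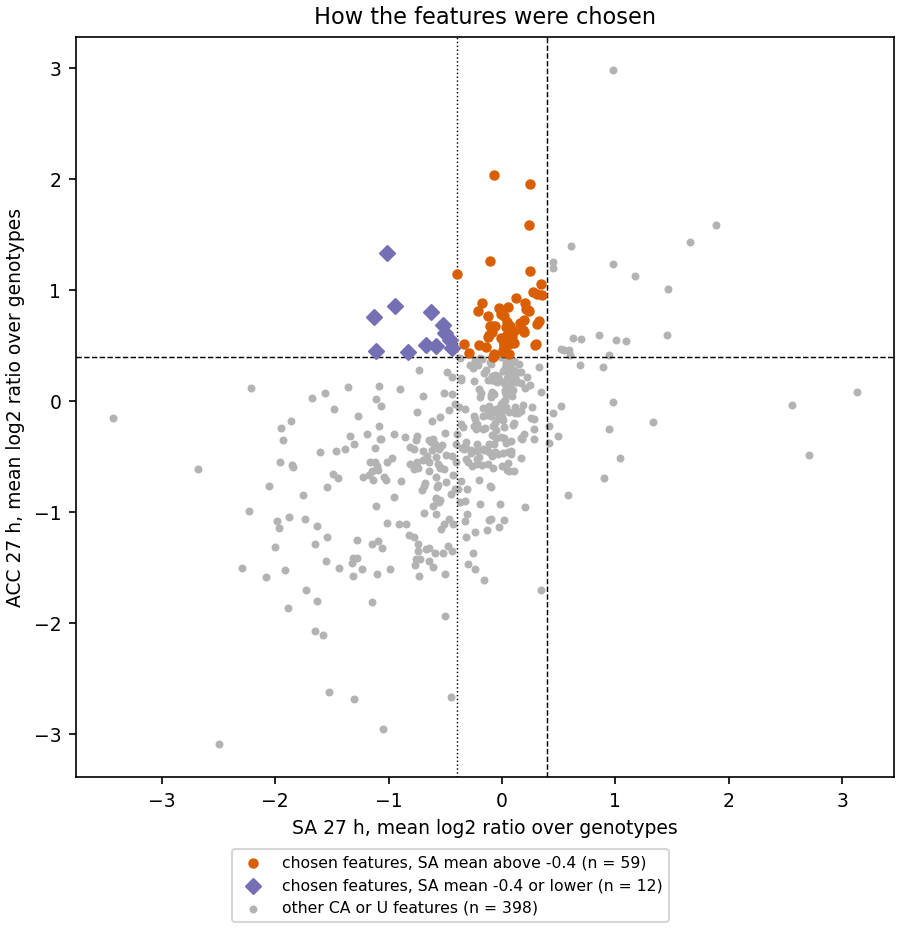
Mean log2 ratio over the genotypes 27 h after ACC (vertical axis) and 27 h after SA (horizontal axis), 1 point per CA or U feature with both means. Dashed lines mark 0.4 and the dotted line -0.4; the 71 chosen features fill the upper left, 12 of them at -0.4 or lower under SA.

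U096 had the highest ACC 27 h mean of the 71. It was at 2.47 in ICC3996, 1.53 in FLIP94-508C and 2.12 in Lasseter under ACC, against -0.03, 0.86 and -1.04 in the same genotypes under SA. All 3 ACC values lay above all 3 SA values, but the SA values ran from below control to above it. CA0709, the next, was at 1.45 in ICC3996, 2.45 in FLIP94-508C and 1.98 in Lasseter under ACC, and at -0.30, 0.88 and 0.17 under SA. U497 was the most even of the leading features, with 1.82 in ICC3996, 1.60 in FLIP94-508C and 1.33 in Lasseter under ACC and 0.04, 0.36 and 0.31 under SA. These 3 were the only members at least 2-fold above control in all 3 genotypes 27 h after ACC.

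The next 3 features followed with means of 1.34, 1.26 and 1.18. U152 was at 1.501 in ICC3996, 1.57 in FLIP94-508C and 0.94 in Lasseter under ACC, and lay below control in all 3 under SA (-0.94, -0.94 and -1.15). The other two were less even. U014 was at 1.96 in ICC3996 and 1.505 in FLIP94-508C but at 0.32 in Lasseter, and its SA values stayed near control (0.03, 0.03 and -0.39). U506 owed its ACC mean of 1.18 ± 1.20 (SD, n = 3) mainly to ICC3996 at 2.56, with 0.55 in FLIP94-508C and 0.42 in Lasseter.

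ICC3996 carried the largest ACC 27 h values in most of the 71. The median over the features was 1.20 in ICC3996, 0.66 in FLIP94-508C and 0.29 in Lasseter. Of the 70 features with 3 values, 54 were highest in ICC3996 (77.1%), 11 in FLIP94-508C and 5 in Lasseter. In Lasseter 53 were lowest (75.7%). Among 383 other CA or U features, 32.4% were highest in ICC3996, 24.0% in FLIP94-508C and 43.6% in Lasseter. The share lowest in Lasseter was 38.6%. Over all features, 75 were at 1 or higher in ICC3996, 20 in FLIP94-508C and 21 in Lasseter. The rule used these samples, so the order is a description. Values of the 70 were above 0 in all 3 genotypes for 50 features and at 0.4 or higher in all 3 for 20. Every measured value in ICC3996 (0.13 to 2.56) and FLIP94-508C (0.00 to 2.45) was above control, whereas 51 of 71 were in Lasseter. Without the ICC3996 sample the ACC 27 h mean was under 0.4 for 30 of the 71, against 6 without FLIP94-508C and 1 without Lasseter.

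The range over the 3 genotypes at ACC 27 h had a median of 0.94 and differed widely between features. CA0756 had the widest, with 1.72 in ICC3996, 0.89 in FLIP94-508C and -1.27 in Lasseter. CA0849 followed with 1.85, 0.49 and -0.32. The narrowest were U262, with 0.48, 0.46 and 0.56, and U357, with 0.34, 0.49 and 0.56. The last pair were modest in size but alike in all genotypes.

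**Figure D2:**
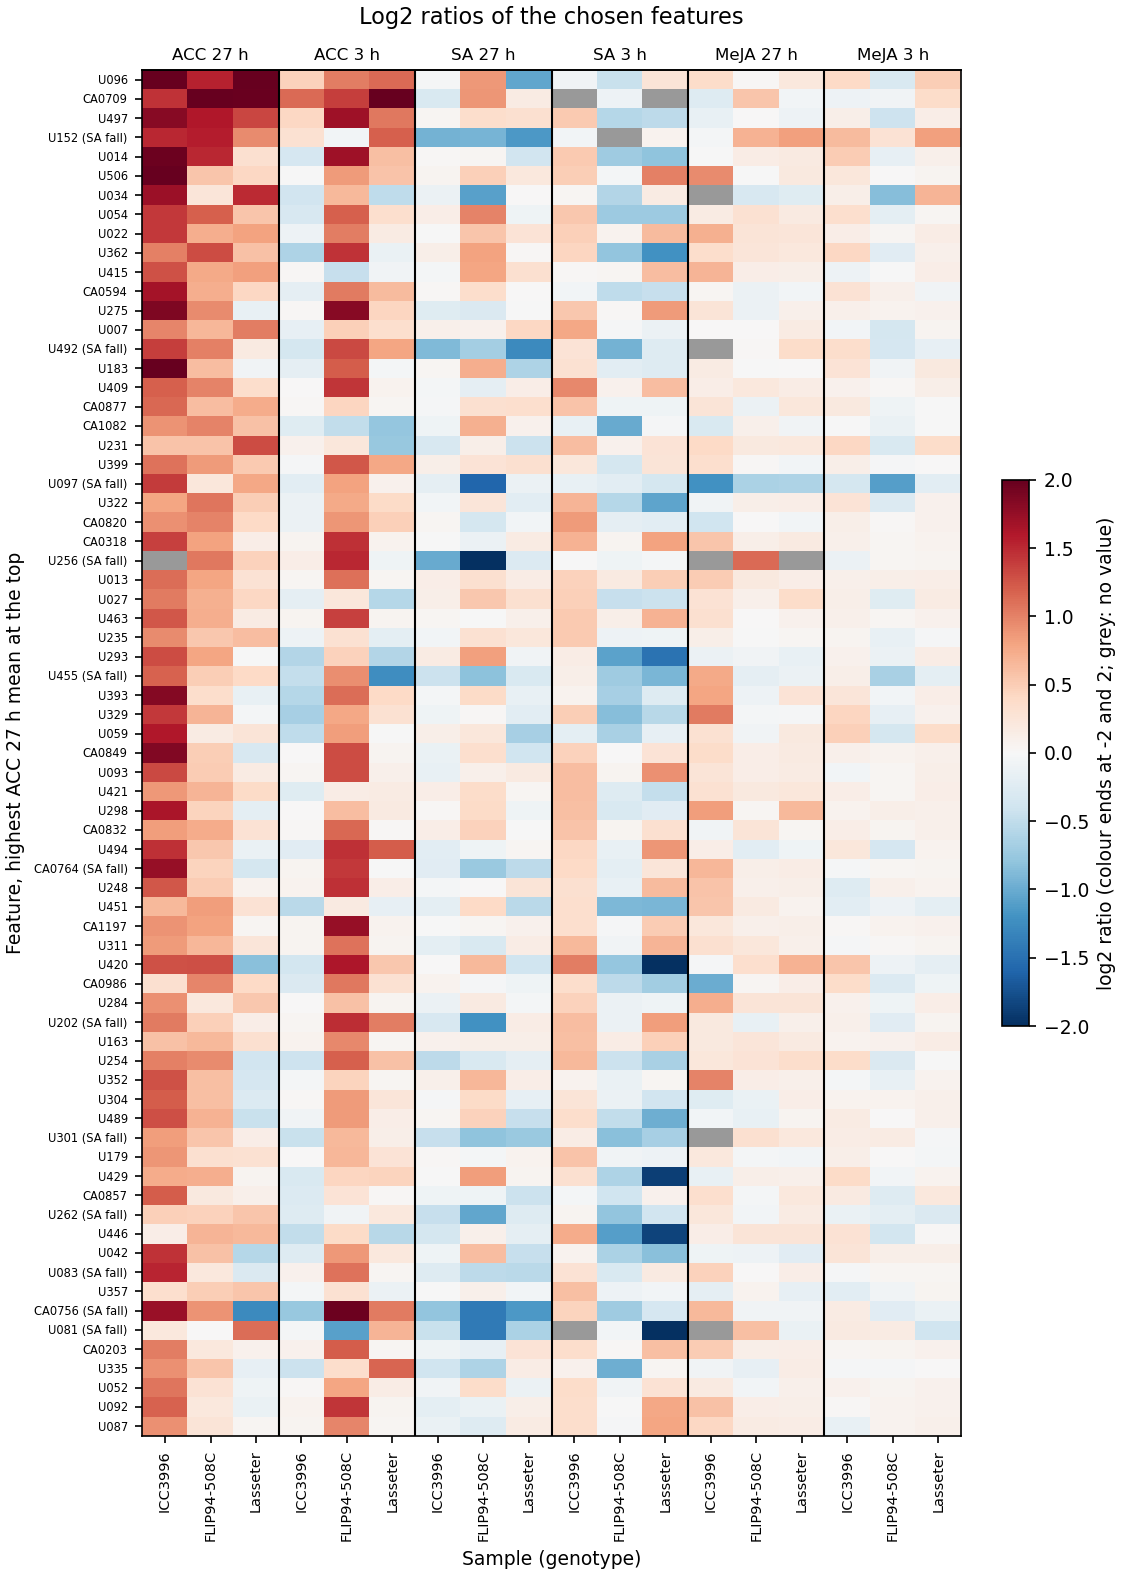
Log2 ratios of the 71 features (rows, highest ACC 27 h mean at the top) in the 18 samples (columns, grouped by compound and time); colour ends at -2 and 2 and grey marks a missing value. Red columns stand out for ICC3996 and FLIP94-508C at ACC 27 h and for FLIP94-508C at ACC 3 h; "SA fall" marks the 12 features at -0.4 or lower in SA 27 h mean.

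The 3 h samples and all MeJA samples took no part in the choice and were tested. In each group the mean over the genotypes was set against 0 in a moderated linear model (limma) over 523 features with at least 2 values in every group, with a genotype term and Benjamini-Hochberg adjustment over all of them. Of the 71, 69 entered these tests. CA0709, with 1 value at SA 3 h, and U256, with 1 at MeJA 27 h, did not. P-values use the genotypes as replicates. They set each mean against the spread left after the genotype term, which is estimated over all groups together.

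After 3 h of ACC the 71 features had a median of 0.36, against 0.67 at 27 h, and 64 of them had a higher mean at 27 h. The other 398 CA or U features had a median of -0.22 at 3 h, from 388 means. A mean of 0.4 or higher was already reached at 3 h by 30 of the 71 (42.3%) and by 20 of the 388 (5.15%). No member passed the test at ACC 3 h in limma (0 of 69). Over all features 0.765% passed, each of them lower than control. At an unadjusted p under 0.05, 7 members were higher and 1 was lower, where 3.82% of all features were higher and 15.3% lower (19.1% in either direction).

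U497 came nearest to the threshold. Its ACC 3 h values were 0.42 in ICC3996, 1.69 in FLIP94-508C and 1.05 in Lasseter, all above control, with a mean of 1.05 (SE 0.25, limma adjusted p = 0.0544). It passed narrowly over features measured in every sample (adjusted p = 0.0499), with sample medians subtracted (adjusted p = 0.0481) and with no filter on other groups (adjusted p = 0.0431). Over all alternatives its adjusted p ran from 0.00416, without the ICC3996 sample, to 0.751, in the methods' t-test. The highest ACC 3 h mean was that of CA0709, with 1.14 in ICC3996, 1.38 in FLIP94-508C and 2.23 in Lasseter (1.58 ± 0.58, SD, n = 3). It was tested only without the filter and then passed (limma adjusted p = 0.00686). It was the only member at least 2-fold above control in all 3 genotypes 3 h after ACC, and 3 members were at 0.4 or higher in all 3.

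U096, at 0.47 in ICC3996, 1.03 in FLIP94-508C and 1.14 in Lasseter, had a mean of 0.88 and did not pass (SE 0.30, limma adjusted p = 0.115). U202 was at 0.03 in ICC3996, 1.48 in FLIP94-508C and 1.02 in Lasseter (mean 0.84, SE 0.29, limma adjusted p = 0.111), and was 1 of 7 members with an ACC 3 h mean at or above the 27 h one. CA1082 had the lowest ACC 3 h mean, -0.50 (SE 0.21, limma adjusted p = 0.199), with -0.24, -0.49 and -0.77 in the same order of genotypes. It lay below control in all 3 genotypes at 3 h and above it in all 3 at 27 h (0.90, 0.99 and 0.59), the only member that was below control in all 3 at 3 h.

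FLIP94-508C stood apart 3 h after ACC. The median of the 71 was -0.04 in ICC3996, 0.96 in FLIP94-508C and 0.12 in Lasseter, where the medians of the other CA or U features were 0.01, -0.49 and 0.01. Of the 71, 61 were highest in FLIP94-508C (85.9%), against 31.1% of the 370 other features with 3 values. In ICC3996 52 were lowest (73.2%), against 25.9% of those 370. At least 2-fold above control were 1 member in ICC3996, 34 in FLIP94-508C and 8 in Lasseter. Over all features 9, 56 and 19 were, in the same order. The FLIP94-508C sample was wider as a whole, with an SD over all features of 1.19, against 0.51 in ICC3996 and 0.88 in Lasseter. The ACC 3 h median of the tested members was 0.01 without the FLIP94-508C sample, so the early level of the list rests on it. It was 0.13 with samples weighted by their agreement with the fit and 0.22 with samples scaled to equal spread. Without the ICC3996 sample 12 of the 69 members passed, all higher, and 96 of all 523 features did. These are like shares, so the count of calls is not a result about the members.

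**Figure D3:**
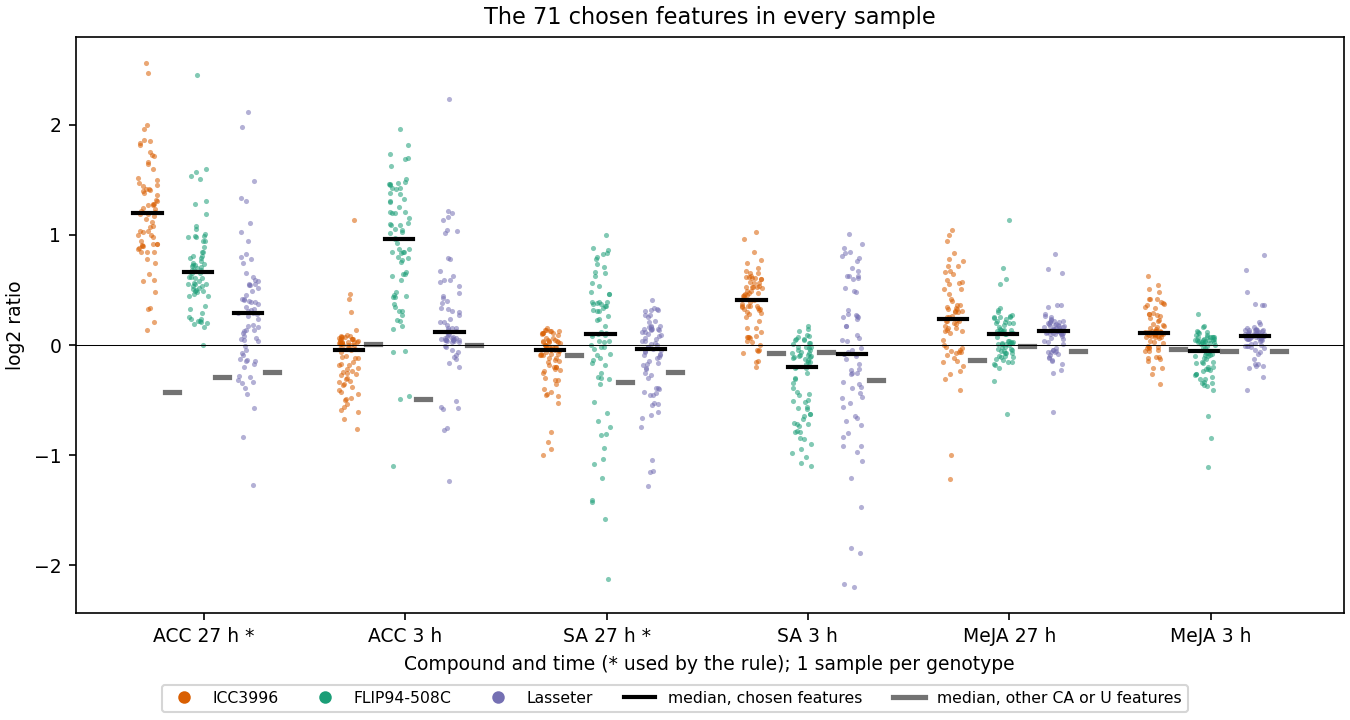
Log2 ratios (vertical axis) of the 71 features in each sample, 1 point per feature, coloured by genotype and grouped by compound and time; black bars are medians of the 71 and grey bars medians of the other CA or U features. The highest medians outside the rule's groups are those of FLIP94-508C at ACC 3 h (0.96) and ICC3996 at SA 3 h (0.41).

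The early ACC values of 1 genotype could be set against the late ones of the others, which share no plants with them. Over 438 CA or U features, the FLIP94-508C values at ACC 3 h had a Pearson correlation of 0.55 with the mean of ICC3996 and Lasseter at ACC 27 h (Spearman 0.64). The same correlation was 0.20 for ICC3996 at 3 h (Spearman 0.02, 470 features) and 0.40 for Lasseter (Spearman 0.36, 453 features). These are correlations across features of the same arrays, which are not independent replicates, and they are given as a description. Within the 71, where the rule narrows the range of the 27 h values, the Pearson correlation was 0.03 for FLIP94-508C (Spearman 0.06), 0.48 for ICC3996 (Spearman 0.06) and 0.50 for Lasseter (Spearman 0.37). For ICC3996 the 2 measures differ widely.

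After 3 h of SA the 71 were split by genotype. The median of the 71 was 0.41 in ICC3996, -0.20 in FLIP94-508C and -0.08 in Lasseter, where the other CA or U features had -0.07, -0.07 and -0.31. Of 68 features with 3 values, 46 were highest in ICC3996 (67.6%), 22 in Lasseter (32.4%) and 0 in FLIP94-508C. Among 347 other CA or U features the shares were 37.8%, 27.4% and 34.9%. In ICC3996, 35 of 69 were at 0.4 or higher and 0 at -0.4 or lower, while in FLIP94-508C 0 of 70 were at 0.4 or higher and 28 at -0.4 or lower. Lasseter had both, with 18 and 21 of 70. Among the other CA or U features the shares at 0.4 or higher were 12.9% in ICC3996, 6.88% in FLIP94-508C and 16.2% in Lasseter, and those at -0.4 or lower 30.8%, 23.0% and 46.9%. The 20 features at 0.4 or higher under both compounds at 27 h had a like order between ICC3996 and FLIP94-508C, with medians of 0.40 in ICC3996, -0.30 in FLIP94-508C and 0.13 in Lasseter.

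Averaged over the genotypes the SA 3 h median of the members tested was -0.02, against -0.13 over all features tested, and 0 of 69 passed in limma. With sample medians subtracted it was 0.096, on the other side of control. Over all features 6.12% passed, 0.574% higher and 5.54% lower. At an unadjusted p under 0.05, 2 members were higher and 3 lower, where 2.68% of all features were higher and 17.6% lower (20.3% in either direction). U409 had the highest mean among members with 3 values, 0.55 (SE 0.25, limma adjusted p = 0.237), with 0.96 in ICC3996, 0.08 in FLIP94-508C and 0.61 in Lasseter. U293 had the lowest, -0.79 (SE 0.28, limma adjusted p = 0.107), with 0.15, -1.07 and -1.47. Without the ICC3996 sample 5 members passed, all lower, and U293 was among them (adjusted p = 0.0227). Calls over all features were mostly lower as well, 29 of the 32 in the fit reported. The direction of these 5 is therefore not particular to the members.

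ACC and SA were then compared directly at 3 h, a difference the rule did not use. The median difference of ACC minus SA over the 69 members was 0.32 on the log2 scale, against 0.00 over all features tested, and 56 of 69 were positive. No member passed in limma, where 0.574% of all features did (0.382% higher and 0.191% lower under ACC), and 3 were higher at an unadjusted p under 0.05 (6.31% of all features were higher and 5.54% lower, 11.9% in all). The largest positive difference among members measured in all 6 samples was that of U420 (1.25, SE 0.67, limma adjusted p = 0.497), whose values were -0.37, 1.62 and 0.54 under ACC and 1.02, -0.78 and -2.19 under SA in ICC3996, FLIP94-508C and Lasseter. The ACC value was above the SA value in FLIP94-508C and Lasseter and below it in ICC3996. The most negative was that of U231 (-0.48, SE 0.32, limma adjusted p = 0.607).

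The median difference rested on FLIP94-508C: it was -0.051 without that genotype's ACC 3 h sample and -0.15 without all its samples. Without the ICC3996 sample of ACC 3 h, 6 members passed, all higher under ACC, and without all ICC3996 samples 6 did. No share over all features stands beside these counts, so they are not read as a result about the members. Counts over all features with samples left out are given with the processing below. ACC minus MeJA at 3 h had a median of 0.29 over the members and -0.08 over all features, with 0 calls in limma among the members and over all features (0%). At an unadjusted p under 0.05, 1 member was higher under ACC, where 0.956% of all features were higher and 4.78% lower (5.74% in all). U497 had the largest difference from MeJA (1.103, SE 0.35, limma adjusted p = 0.497) and CA1082 the most negative (-0.45, SE 0.30, limma adjusted p = 0.912).

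Of the 71, 12 had an SA 27 h mean of -0.4 or lower and so lay on opposite sides of control under the 2 compounds. That is 16.9% of the 71, against 42.7% of the other CA or U features at -0.4 or lower under SA and 40.4% of all features. U034, at -0.396, was just outside this limit. In 11 of the 12 all 3 genotypes were below control under SA, and in 5 all 3 were at -0.4 or lower. The lowest SA value was that of FLIP94-508C in 9 of the 12 and that of Lasseter in 3, and the median over the 12 was -0.45 in ICC3996, -0.99 in FLIP94-508C and -0.53 in Lasseter. U152 was the clearest case, with all 3 ACC values at 0.94 or higher and all 3 SA values at -0.94 or lower.

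The others differed in which genotype carried them. U256 was at 1.06 in FLIP94-508C and 0.46 in Lasseter under ACC, with no value in ICC3996, against -2.12 and -0.27 under SA, and -1.0001 in ICC3996. CA0756 was below control in all 3 genotypes under SA (-0.79 in ICC3996, -1.41 in FLIP94-508C and -1.14 in Lasseter), but under ACC Lasseter was below control too, at -1.27. U492 was at 1.38 in ICC3996, 1.01 in FLIP94-508C and 0.19 in Lasseter under ACC, against -0.88, -0.69 and -1.28 under SA. The values of these 3 features did not overlap between ACC and SA, except CA0756 through its Lasseter value. They were picked on the means of these same values, so the separation is part of the choice and not a result.

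U081 was high under ACC mainly in Lasseter (0.21 in ICC3996, 0.00 in FLIP94-508C and 1.11 in Lasseter), while its SA values were lowest in FLIP94-508C (-0.44, -1.42 and -0.63). U301 was more even, with 0.84, 0.55 and 0.13 under ACC and -0.47, -0.81 and -0.74 under SA. The 6 other features of the 12 had SA 27 h means between -0.62 (U097) and -0.44 (U083).

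**Figure D4:**
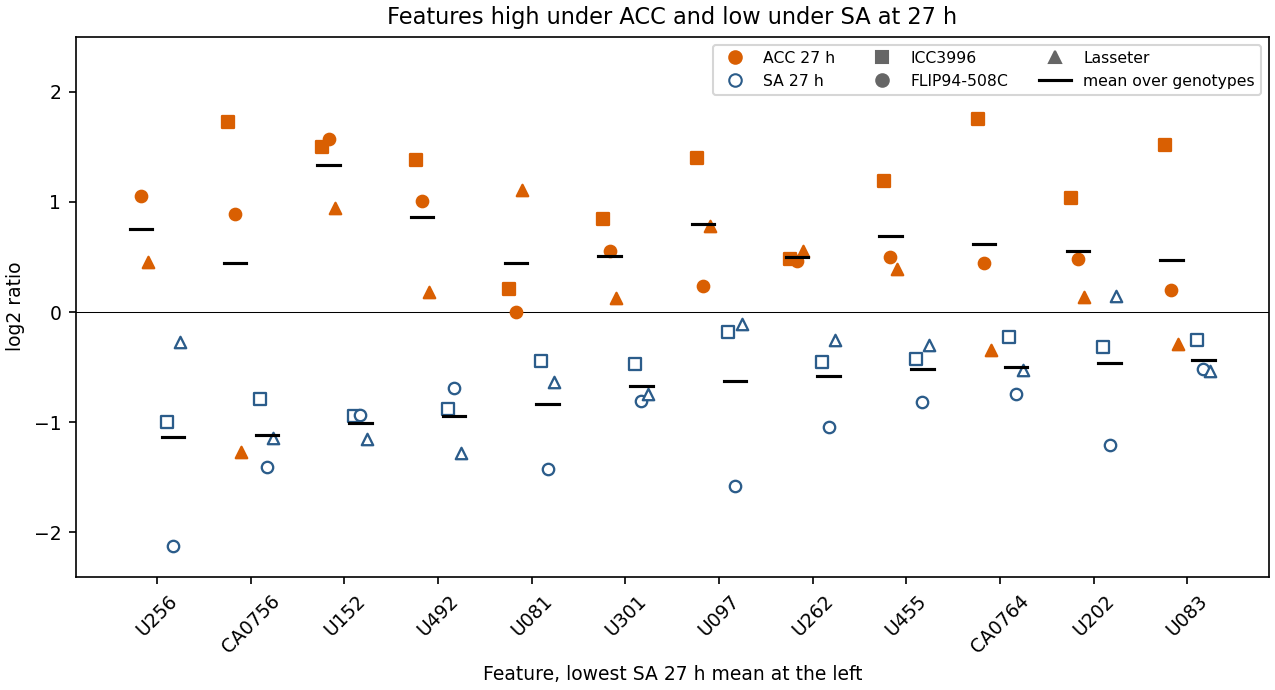
Log2 ratios (vertical axis) of the 12 features with an SA 27 h mean of -0.4 or lower, 27 h after ACC (filled) and SA (open), with 1 symbol shape per genotype and a bar for the mean. In 11 of the 12 all 3 SA values are below 0, and U152 has the widest gap between the 2 compounds.

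At 3 h the ACC mean was above the SA mean in all 12, and in 45 of the 58 other members with both means. The mean was above control under ACC and below it under SA in 5 of the 12 and 22 of the 58. These counts rest on means over genotypes that differed, and no share over other features was counted. Over the 71, the 3 h median in ICC3996 was lower under ACC (-0.04) than under SA (0.41). It was higher under ACC in FLIP94-508C (0.96 and -0.20) and in Lasseter (0.12 and -0.08). The SA 3 h means of the 12 had a median of -0.22, from -1.11 to 0.44, with 4 of 12 above 0. The other 59 members had a median of 0.04. The ACC 3 h means of the 12 had a median of 0.45 and 7 of 12 were at 0.4 or higher, as were 23 of the other 59. Under MeJA their medians were 0.19 at 27 h (11 means) and -0.02 at 3 h. The lowest SA 3 h mean was that of U081 (-1.11, n = 2, with -0.05 in FLIP94-508C and -2.17 in Lasseter). U152, the feature with the widest gap at 27 h, was at control 3 h after SA (-0.05 in ICC3996 and 0.06 in Lasseter).

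Values under MeJA stayed close to control. After 27 h of MeJA their means had a median of 0.17, against -0.08 for the other CA or U features, and 5 of 70 were at 0.4 or higher and 1 at -0.4 or lower. After 3 h the median was 0.04, against -0.05, and 62 of 71 means lay within 0.15 of control. No member passed in limma at either time, nor did any feature (0%). At an unadjusted p under 0.05, 1 member was higher and 1 lower at 27 h, and 1 was higher at 3 h, where 0.765% of all features were higher and 4.4% lower at 27 h (5.16% in all) and 0.382% higher and 1.53% lower at 3 h (1.91% in all). In ICC3996 27 h after MeJA 20 of 66 members were at 0.4 or higher (30.3%). In FLIP94-508C 4 of 71 were (5.63%), and in Lasseter 3 of 70 (4.29%). Over all features the shares were 15.4% in ICC3996, 4.16% in FLIP94-508C and 2.88% in Lasseter. The ICC3996 sample was wider as a whole, with an SD over all features of 1.04, against 0.31 in FLIP94-508C and 0.28 in Lasseter.

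Of the 4 members with the highest MeJA 27 h means, 3 had their highest value in ICC3996. U298 was at 0.84 in ICC3996, 0.04 in FLIP94-508C and 0.65 in Lasseter (mean 0.51, SE 0.27, limma adjusted p = 0.986). U352 was at 0.998, 0.13 and 0.11, and U284 at 0.72, 0.25 and 0.26. U152 differed from these, with -0.04 in ICC3996, 0.70 in FLIP94-508C and 0.82 in Lasseter at 27 h and 0.63, 0.28 and 0.82 at 3 h. Its 3 h mean of 0.58 was the highest of the members (SE 0.24, limma adjusted p = 0.997), and all 3 genotypes were above control.

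U097 was the exception in the other direction. It was below control in all 3 genotypes at both MeJA times, with -1.21 in ICC3996, -0.63 in FLIP94-508C and -0.61 in Lasseter at 27 h and -0.36, -1.11 and -0.21 at 3 h. Neither mean passed (-0.82, SE 0.29, limma adjusted p = 0.713 at 27 h, and -0.56, SE 0.29, adjusted p = 0.997 at 3 h). With samples scaled to equal spread both did (adjusted p = 0.0157 at 27 h and 0.0384 at 3 h), while its ACC 27 h values were 1.40, 0.23 and 0.78.

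The change from 3 h to 27 h under MeJA had a median of 0.13 over the members and 0.02 over all features, with 0 calls in limma (0% of all features) and 0 members at an unadjusted p under 0.05 (0.191% of all features, lower at 27 h). U352 had the largest positive difference (0.45, SE 0.34, limma adjusted p = 0.999) and U042 the most negative (-0.31, SE 0.40, limma adjusted p = 0.999).

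The genotypes were compared over the 12 samples outside the rule, in a limma model with the compound-by-time group as a term, over 527 features of which 69 were members. The median difference over the members was 0.05 for ICC3996 minus Lasseter, 0.11 for FLIP94-508C minus Lasseter and 0.02 for ICC3996 minus FLIP94-508C. No member and no feature passed in any of the 3 comparisons (0%), and at an unadjusted p under 0.05 there were 0 members and 1.52% of all features in each. Those features were 0.759% higher and 0.759% lower for FLIP94-508C minus Lasseter, and 1.14% higher and 0.38% lower for both ICC3996 comparisons. U455 had the largest positive difference of ICC3996 minus Lasseter (0.74, SE 0.43, limma adjusted p = 0.999) and U335 the most negative (-0.44, SE 0.32, same adjusted p). For FLIP94-508C minus Lasseter they were U420 (0.56, SE 0.65, limma adjusted p = 0.979) and again U335 (-0.55, SE 0.32, same adjusted p). For ICC3996 minus FLIP94-508C they were U329 (0.40, SE 0.42, limma adjusted p = 0.994) and CA1197 (-0.32, SE 0.36, same adjusted p).

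Averages over compounds hide opposite orders of the genotypes. The median of the 71 in ICC3996 minus that in FLIP94-508C changes sign between groups, since ICC3996 was below FLIP94-508C at ACC 3 h (-0.04 and 0.96) and above it at SA 3 h (0.41 and -0.20) and at MeJA 27 h (0.24 and 0.10). With 1 sample for each genotype in a group, such a crossing has no replicate of its own and was not tested.

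**Figure D5:**
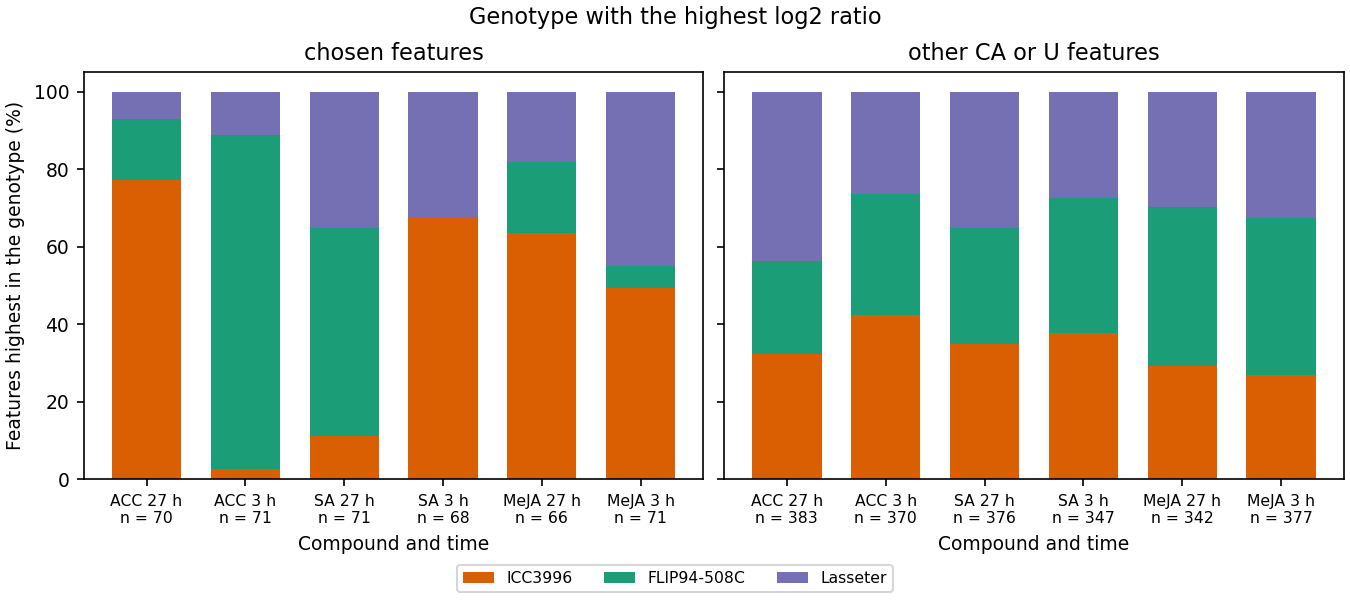
Share of features (vertical axis, percent) whose highest log2 ratio was in each genotype, by compound and time, for the chosen features (left) and the other CA or U features (right), over features with 3 values. At ACC 3 h 85.9% of the chosen features are highest in FLIP94-508C, against 31.1% of the others, and at SA 3 h none are.

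Features at 0.4 or higher under both compounds at 27 h were the nearest group, and there were 20. At ACC 27 h the median was 0.67 for the 71 and 0.59 for the 20, values that the rule bounds. At ACC 3 h the median was 0.36 for the 71, against 0.03 for the 20, and 30 of 71 were at 0.4 or higher, against 3 of 19. Averaged over genotypes at SA 3 h the medians were -0.02 for the 71 and 0.02 for the 20, both over genotypes that differed as given above. At MeJA 27 h the medians were 0.17 for the 71 and 0.09 for the 20. The shares at 0.4 or higher had the other order, with 5 of 70 (7.14%) against 5 of 19 (26.3%). At MeJA 3 h both medians were 0.04. The 16 features at 0.4 or higher under SA alone had a median of -0.36 at ACC 3 h. These medians are a description of lists, and no difference between the lists was tested.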

How the data were processed

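RNA of treated and untreated shoots was measured on 2-colour cDNA arrays, 1 deposited column for each of 18 samples. Per the labels, each column is the authors' mean over 3 biological replications with dye swaps, and the design text gives 6 technical replicates and 324 images from 54 slides. Per the design text, the authors used Jaguar 2.0, ImaGene 5 (5.5 per the deposited readme) and GeneSight 3 to subtract local background, omit flagged spots, apply Lowess and average duplicate spots after a shifted log2 of Cy5 over Cy3. The deposited log2 ratios were used as they stand. The shift pulls ratios of dim spots towards 0, and the text does not state its size. Arrays give no read depth, so their number and the omitted spots limit the precision.

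The members and the naming rule were chosen with earlier results of these data known, so nothing here is independent evidence for the pattern that chose them. The moderated models (limma 3.58.1, R 4.3.3, two-sided) had 6 compound-by-time means and a genotype term (12 samples and 4 means for the genotype comparisons), a threshold of 0.05 and the filter given above. The same genotypes are in every group, which pairs the samples. The fit was tested on simulated data. Alternatives were another filter, median subtraction, equal spread, sample weights, a variance trend, no genotype term, the methods' t-test, fewer samples and other limits for the choice. Named features were, by rule, the members with the highest ACC 27 h, ACC 3 h and MeJA 27 h means, the lowest SA 27 h means, the widest and narrowest ranges over genotypes, those nearest the limits, and the extremes of each test. U034, U083 and U451, outside this rule, were named after their values were seen. No value column was left unmapped (0).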

Additional observations from a re-analysis of the deposited data

Results flagged for a closer look

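Among the groups that the rule did not use, 2 of the 71 features lay on one side of control in all 3 genotypes at 27 h and on the other in all 3 at 3 h, both under MeJA. Every pair of these groups was searched, but only among the 71. No share over other features stands beside the count, so it is not a result about the members. U042 was at -0.14 ± 0.07 (SD, n = 3) at 27 h and 0.17 ± 0.08 (SD, n = 3) at 3 h, and the 3 h mean minus the 27 h mean was 0.31. U451 was at 0.27 ± 0.26 (SD, n = 3) at 27 h and -0.17 ± 0.06 (SD, n = 3) at 3 h, and the 3 h mean minus the 27 h mean was -0.44. Neither passed the limma test of MeJA 27 h minus 3 h. Groups of 3 samples were not searched for single samples far from the others.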

How the results depend on the processing

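The number of features chosen, 71, became 114 with sample medians subtracted first, 58 of them shared, and 38 to 94 when a genotype was left out. Members called at ACC 3 h, 0 in the fit reported, became 1 over features measured in every sample, 2 with no filter on other groups and 1 with medians subtracted. At MeJA 3 h they became 1 with samples scaled to equal spread, and at MeJA 27 h 2 with equal spread and 1 with sample weights. All features called at ACC 3 h, 4 in the fit reported, became 14 over features measured in every sample, 15 with no filter on other groups, 8 with medians subtracted, 2 with equal spread, and 0 with sample weights, a variance trend, the 12 samples outside the rule alone or the methods' t-test. At SA 3 h the 32 became 15 with equal spread, 20 with sample weights, 21 with a variance trend, 12 in the 12 samples alone and 0 in the methods' t-test. The 0 became 18 with equal spread and 4 with sample weights at MeJA 3 h, 15 and 6 at MeJA 27 h, and 4 with equal spread for ACC minus MeJA. For ACC minus SA the 3 became 0 over features measured in every sample and with equal spread, 6 with medians subtracted, 5 with a variance trend and 5 with the pairing by genotype (the replicate block) left out, which changed no other count by over 1.5 times and no call of a member. The cause of these changes was not tested.

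When single samples or whole genotypes were left out, members called ran from 0 to 12 at ACC 3 h, 0 to 5 at SA 3 h, 0 to 6 for ACC minus SA and 0 to 2 for ACC minus MeJA, and all features called from 0 to 96, 0 to 38, 0 to 31 and 0 to 21. The highest count at ACC 3 h came without the ICC3996 sample of that group. Without all ICC3996 samples 7 members and 69 features were called at ACC 3 h, 4 members at SA 3 h, 6 members and 25 features for ACC minus SA, and 6 features for ACC minus MeJA. The SA 3 h count over all features in that fit lay within the range given above. Without all FLIP94-508C samples 0 features were called at ACC 3 h and 5 for ACC minus SA. The members' median ran from 0.01 to 0.65 at ACC 3 h, -0.15 to 0.13 at SA 3 h, -0.031 to 0.13 at MeJA 3 h, 0.11 to 0.23 at MeJA 27 h, -0.15 to 0.66 for ACC minus SA, -0.04 to 0.60 for ACC minus MeJA, 0.026 to 0.21 for MeJA 27 h minus 3 h, -0.21 to 0.25 for FLIP94-508C minus Lasseter, -0.09 to 0.30 for ICC3996 minus Lasseter and -0.17 to 0.29 for ICC3996 minus FLIP94-508C. Of 299 values for named features, 284 kept direction and side of the threshold, 11 passed it and 4 turned. With sample weights U420 (FLIP94-508C minus Lasseter) turned to -0.054 and CA1197 (ICC3996 minus FLIP94-508C) to 0.015. With samples left out U420 ran from -0.025 to 0.93 and CA1197 from -0.56 to 0.14. A fit with no filter on other groups was not run for the genotype comparisons, which use all their groups.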

Other observations

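A set of features that was near control in 5 samples was noticed after the data were seen. In 18 of the 71 (25.4%), and in 68 of the other 398 CA or U features (17.1%), the values at ACC 3 h in ICC3996 and Lasseter and at MeJA 3 h in all 3 genotypes lay within 0.15 of control. The FLIP94-508C value at ACC 3 h of the 18 had a median of 1.25 (-0.46 to 1.74). It was 0.96 over all 71 and 0.13 (-1.70 to 1.21) in the 68. At ACC 27 h the medians of the 18 were 1.17 in ICC3996, 0.66 in FLIP94-508C and 0.17 in Lasseter, against 1.20, 0.66 and 0.29 over the 71. At SA 3 h the medians of the 18 were 0.46, 0.01 and 0.56 in the same genotypes, against 0.41, -0.20 and -0.08 over the 71. These values are a description of a list chosen after its values were seen, with no test.

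Missing values were fewer among the chosen features. A value in all 18 samples was present for 64 of the 71 (90.1%) and for 313 of the other 398 (78.6%).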
